A study of Homo sapiens with 3 samples.

Results

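The ADA-EPHA7-SFRP5 cells are a group of chromogranin-low epithelial cells found where H1 cells, a long-established line of human embryonic origin, had been driven toward pancreatic beta cells. They were chosen by expression: a barcode was a member when it carried 1000 to 40000 UMIs (unique molecular identifiers, each standing for 1 captured RNA molecule), at least 500 genes, a mitochondrial UMI share no greater than 20% and fewer than 5 CHGA UMIs per 10000. It also needed a UMI of at least 3 of the 5 markers ADA, EPHA7, CDX1, FGF7 and SFRP5, and of fewer than 3 of the 5 genes MMP1, AOC1, GPX2, TDO2 and AGR2. This gave 4026 members among 25463 barcodes that passed the limits on UMIs, genes and mitochondrial share, and among 29021 deposited barcodes. The members were 1322 cells of the KO library (PAX6-/-), 1452 of the HET library (PAX6+/-) and 1252 of the WT library. All cells carried the cell type label of stem cell-derived beta cells, and each genotype was represented by 1 droplet library. The sources used here give neither the lesion in PAX6 nor how many clones or differentiations went into a library.

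The 5 markers belong to different systems. ADA, adenosine deaminase, breaks down adenosine and is abundant in the epithelium of the duodenum. CDX1 is a homeobox transcription factor of the intestinal epithelium, and its relative CDX2 is needed for intestinal identity. SFRP5 is a secreted WNT inhibitor of the foregut endoderm, FGF7 is a secreted growth factor best known from mesenchyme, and EPHA7 is a receptor for ephrins. In the embryo the posterior foregut and the duodenum lie beside the pancreatic buds and share PDX1, a transcription factor of both.

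Library depth was similar across genotypes. The deposited barcodes held 145948590 UMIs in KO, 136834433 in HET and 140068492 in WT. Member cells held 22168957, 23478467 and 20669110 UMIs in KO, HET and WT, with a median of 15051.5, 13993 and 15006.5 per cell. The median mitochondrial share of a member was 6.57% in KO, 6.56% in HET and 4.81% in WT, against 5.13%, 6.16% and 4.68% in the other CHGA-low barcodes. Pairs of libraries shared 26 to 43 deposited barcode sequences, and among members 1 barcode was shared between KO and HET and none between WT and either edited library. With 1 library per genotype, a difference between genotypes cannot be told apart from a difference between libraries, and intervals given here cover counting error only (95%, exact). PAX6 RNA was present in all 3 libraries, so its level does not check the labels. It was found at 2.44, 2.04 and 3.48 plain CPM (the usual depth-scaled UMI count of a gene) in KO, HET and WT members, far under the 275, 217 and 286 plain CPM in the CHGA-high barcodes of the same libraries.

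Member cells made up a similar part of each library. Their share of kept barcodes was 15.2% in KO (14.5 to 16.0), 17.5% in HET (16.7 to 18.3) and 14.8% in WT (14.0 to 15.5). The KO and WT intervals overlapped, and the HET interval lay above both. Among CHGA-low barcodes the shares were 17.9%, 19.2% and 18.97% in KO, HET and WT, and all intervals overlapped. Because detection of 3 markers depends on depth, each barcode was also thinned to 5000 UMIs, which left out 309 shallower barcodes in KO, 223 in HET and 395 in WT. At that depth the rule kept 4.97% of KO, 5.77% of HET and 5.25% of WT barcodes. At equal depth the HET interval (5.27 to 6.30) overlapped those of KO (4.51 to 5.46) and WT (4.78 to 5.76).

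**Figure D1:**
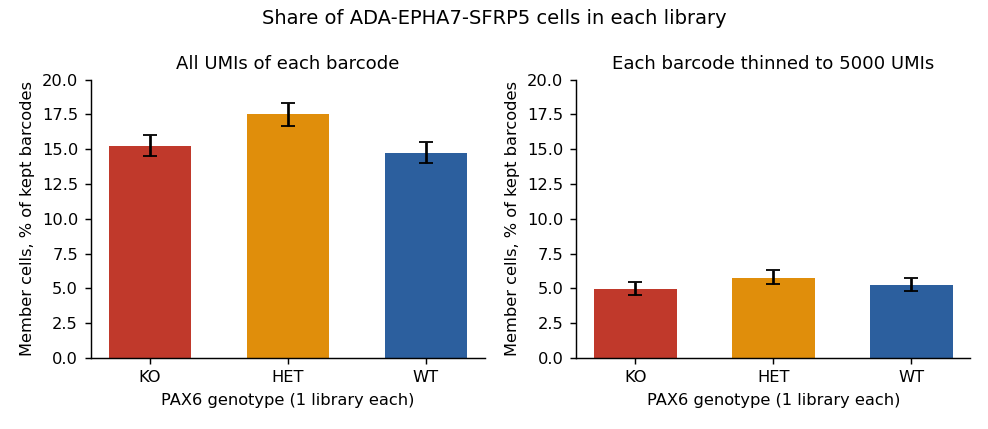
Share of kept barcodes that met the rule for ADA-EPHA7-SFRP5 cells (vertical axis, %) in the KO, HET and WT libraries, with all UMIs (left) and after thinning each barcode to 5000 UMIs (right). Bars are single libraries and error bars are exact binomial 95% intervals; HET is highest in both panels, at 17.5% and 5.77%.

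The markers chose the cells, so their levels in members are a description. Levels are CPM scaled between libraries with TMM factors, except where plain CPM is named. ADA (chromosome 20, 44619522 to 44652233, minus strand, GRCh38) stood at 158, 119 and 220.0 CPM in KO, HET and WT members. EPHA7 (chromosome 6, 93240020 to 93419547, minus strand) stood at 144, 123 and 85.6 CPM, and FGF7 (chromosome 15, 49423096 to 49488775, plus strand) at 75.8, 83.9 and 43.6 CPM. These last 2 genes were higher in both edited libraries than in WT. CDX1 (chromosome 5, 150166795 to 150184558, plus strand) stood at 55.3, 38.5 and 80.9 CPM, and SFRP5 (chromosome 10, 97766751 to 97771952, minus strand) at 90.7, 107 and 151 CPM. ADA, CDX1 and SFRP5 were highest in WT members.

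The near-equal shares of members were made up of different marker combinations in the 3 libraries. In all CHGA-low barcodes, which were selected without the markers, ADA was at 52.7, 51.6 and 124 CPM in KO, HET and WT. SFRP5 was at 32.3, 55.3 and 99.6 CPM there, and CDX1 at 21.8, 20.4 and 44.2 CPM. Relative to WT, the KO barcodes were thus 2.36-fold lower for ADA (2.29 to 2.43), 3.08-fold lower for SFRP5 and 2.02-fold lower for CDX1 (1.93 to 2.12). In contrast, EPHA7 was higher than in WT, by 1.42-fold in KO (1.36 to 1.47) and 1.56-fold in HET (1.499 to 1.62). FGF7 was 1.28-fold higher in KO and 1.87-fold higher in HET. The marker combinations of members follow from these same levels and from the rule, so they are a description and no separate support. Cells with exactly ADA, CDX1 and SFRP5 were 2.72% of KO, 1.997% of HET and 14.5% of WT members. Cells with EPHA7, FGF7 and SFRP5 were 7.49%, 12.1% and 2.24%. The commonest combination in every library was ADA, EPHA7 and SFRP5, with 19.4%, 22.8% and 29.6%. All 5 markers were found together in 102 KO, 81 HET and 64 WT cells. A CDX1 UMI was present in 44.3% of KO, 33.3% of HET and 50.9% of WT members, so many members were chosen without it.

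**Figure D2:**
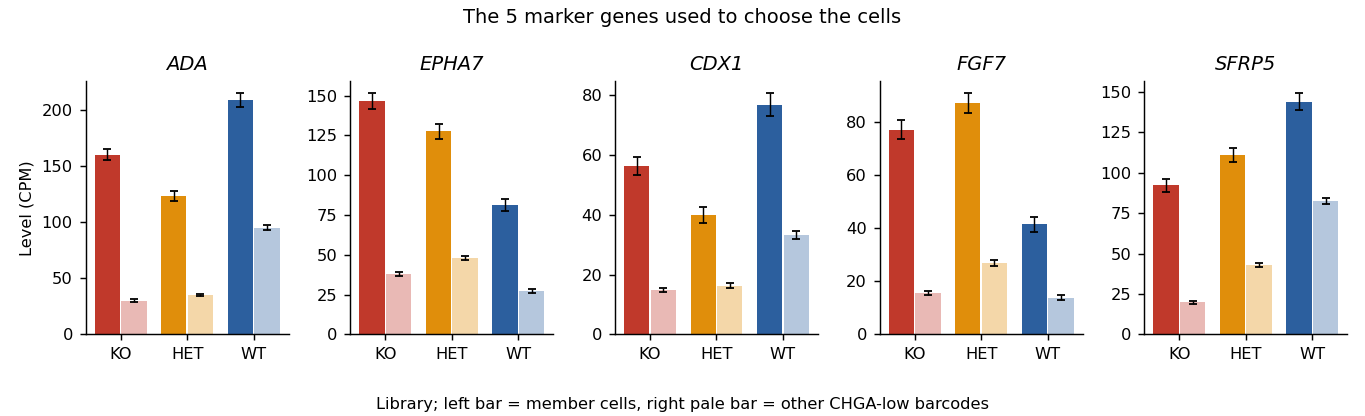
Level of each marker gene (vertical axis, plain CPM) in member cells (left bars) and in the other CHGA-low barcodes (right, pale bars) of the KO, HET and WT libraries. Error bars are exact Poisson 95% intervals; ADA, CDX1 and SFRP5 are highest in WT members, and EPHA7 is highest in KO and FGF7 in HET members.

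Each marker was also higher where the other markers were found. The 5 markers were chosen with earlier results of these data known, so this is a description and not independent support for the group. Each marker was measured in CHGA-low barcodes that had at least 2 of the other 4 markers (and fewer than 3 of the 5 excluded genes), against those with fewer. ADA was 4.61-fold higher in the barcodes with other markers in KO, 2.54-fold in HET and 2.37-fold in WT. EPHA7 was 3.06-, 2.06- and 1.95-fold higher, and FGF7 3.26-, 2.39- and 1.96-fold higher. SFRP5 was 3.03-, 1.81- and 1.67-fold higher, and CDX1 2.26-, 1.44- and 1.67-fold higher. In each of these 15 values the lower bound of the counting interval lay above 1, and for every marker the fold was highest in KO.

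Free RNA in the droplets gives stray UMIs, and CHGA-high endocrine barcodes served as a comparison for it. After thinning, ADA was found in 6.15%, 11.3% and 9.75% of CHGA-high barcodes in KO, HET and WT. It was found in 10.49%, 12.6% and 24.7% of the CHGA-low barcodes that were not members. FGF7 was found in 6.15%, 9.25% and 6.12% of CHGA-high barcodes, close to its 6.61%, 10.46% and 5.87% in those other CHGA-low barcodes. SFRP5 in CHGA-high barcodes reached 2.99%, 9.25% and 7.02%. The median depth was 12514 to 12876.5 UMIs in CHGA-high barcodes and 13961 to 15754 in the others. The non-members also hold barcodes that met the marker rule but had 3 or more of the excluded genes, in which FGF7 stood at 81.9, 100.3 and 43.4 plain CPM in KO, HET and WT.

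The 250 bases before the first start listed by RefSeq are shown here for ADA, EPHA7, FGF7 and SFRP5 (GRCh38.p14, in the gene's own direction). They were looked up because each marker was higher in CHGA-low barcodes that had other markers. CDX1 had no entry in the promoter source used, so no window is shown for it. Capitals mark TTTAT or its reverse complement ATAAA, the core letters bound by CDX proteins, searched on both strands. The windows are chr20:44651700-44651949 (minus strand) for ADA, chr6:93419560-93419809 (minus strand) for EPHA7, chr15:49422992-49423241 (plus strand) for FGF7 and chr10:97772000-97772249 (minus strand) for SFRP5.
ADA: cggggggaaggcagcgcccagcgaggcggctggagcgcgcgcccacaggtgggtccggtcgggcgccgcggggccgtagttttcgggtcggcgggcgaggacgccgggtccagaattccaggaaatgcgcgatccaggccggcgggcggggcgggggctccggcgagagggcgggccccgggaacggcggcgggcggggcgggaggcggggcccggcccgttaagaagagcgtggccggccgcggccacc
EPHA7: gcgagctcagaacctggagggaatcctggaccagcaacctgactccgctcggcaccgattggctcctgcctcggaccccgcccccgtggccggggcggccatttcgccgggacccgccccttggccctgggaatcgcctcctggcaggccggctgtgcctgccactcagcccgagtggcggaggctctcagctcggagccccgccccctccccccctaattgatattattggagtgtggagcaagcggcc
FGF7: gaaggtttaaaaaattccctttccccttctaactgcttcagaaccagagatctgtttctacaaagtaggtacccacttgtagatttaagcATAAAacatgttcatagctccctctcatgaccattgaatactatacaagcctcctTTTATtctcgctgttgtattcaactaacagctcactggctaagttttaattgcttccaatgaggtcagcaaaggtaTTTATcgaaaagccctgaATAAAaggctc
SFRP5: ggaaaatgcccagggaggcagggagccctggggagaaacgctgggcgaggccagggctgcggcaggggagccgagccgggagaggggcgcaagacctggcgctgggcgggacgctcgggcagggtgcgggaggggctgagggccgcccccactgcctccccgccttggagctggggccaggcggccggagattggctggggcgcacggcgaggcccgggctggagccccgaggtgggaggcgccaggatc
The FGF7 window held 4 matches and the other 3 windows held none. Windows of the same length held a match at 33.7% of 27305 genes, so the motif is common. It was held by 3 of 17 windows (17.6%) among the 20 genes most above the other barcodes, and by 7 of 9 (77.8%) among the 10 genes most below them. The ADA and SFRP5 windows are rich in G and C.

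The label of gut-like progenitor cells was checked against intestinal genes. CDX2 was present at 136, 142 and 255 CPM in KO, HET and WT members, but at nearly the same level, 155, 129 and 246 CPM, in the other CHGA-low barcodes. Among 17 genes of intestinal epithelial function with at least 5 CPM, 0 were above the other barcodes in all 3 libraries and 10 were below, where 28.6% of all genes at this level were above and 25.2% below. FABP1, a fatty acid binding protein of enterocytes, was at 115, 107 and 89.5 CPM in members against 209, 224 and 218 CPM in the others. Part of this follows from the rule, since the others include the barcodes set aside for the excluded genes. In barcodes with those genes and fewer than 3 markers FABP1 stood at 458, 581 and 334 plain CPM in KO, HET and WT, and in barcodes with neither set at 196, 185 and 176 plain CPM. VIL1, which encodes villin of the brush border, was at 66.3, 80.1 and 79.3 CPM, and GUCY2C, an intestinal guanylate cyclase, at 6.17, 7.68 and 9.38 CPM. The intestinal stem cell gene OLFM4 had 0 UMIs in the members of every library, which does not exclude a low level, and LGR5 had 1 UMI in HET members and 0 in KO and WT members. The HOXB genes, taken as a whole cluster, summed to 1.91, 6.29 and 2.60 CPM over 10 genes in KO, HET and WT members. The HOXA genes summed to 15.2, 20.1 and 18.96 CPM over 11 genes, of which 2 reached 5 CPM in a library. The HOXC and HOXD sums were at most 1.07 CPM. The data thus go only part of the way with the label. CDX2 RNA was present at a level close to that of the other non-endocrine cells, and genes of intestinal function were not higher in members. In CHGA-low barcodes with 0 markers VIL1 was at 67.9, 49.6 and 65.2 plain CPM in KO, HET and WT. In those with 5 markers it was at 61.2, 90.8 and 76.5 plain CPM. Of 25 intestinal transcription factors, 13 were above the other barcodes in all 3 libraries and 1 was below. The 13 include CDX1, a marker of the rule. The cells are called here by the 3 markers of their commonest combination.

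Genes of neighbouring organs were also present in the same cells. PDX1 was at 71.2, 74.1 and 109 CPM in KO, HET and WT members, FOXA2 at 62.8, 84.5 and 94.4 CPM and GATA4 at 90.2, 84.6 and 93.5 CPM. AFP, a fetal liver and yolk sac protein, was at 545, 539.8 and 586 CPM, and ALB was at 12.3, 13.4 and 14.5 CPM. The epithelial gene EPCAM was at 756, 777 and 1067 CPM. Mesenchymal markers summed to 41.1, 55.6 and 55.7 CPM over 19 genes. Endothelial markers summed to 44.7, 56.5 and 76.9 CPM over 10 genes, with PECAM1 at or under 0.153 CPM. Of these endothelial markers 2 reached 5 CPM in a library and 1 reached 50 CPM. Immune markers summed to 137, 92.6 and 155 CPM over 10 genes in KO, HET and WT members. Only 2 of the 10 reached 5 CPM in a library and 1 reached 50 CPM, and PTPRC had at most 0.0888 CPM. The immune marker LYZ had a UMI in 26.0%, 19.8% and 22.0% of thinned KO, HET and WT members. The gastric gene CLDN18 stayed between 0.740 and 6.52 CPM.

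Few genes separated the members from the rest of the CHGA-low barcodes. The level within a library (plain CPM) in members was divided by the level in the others. Of 2886 genes at 50 CPM or more in the members of every library, 2 (0.0693%) were at least 2-fold higher in all 3, and both were markers, EPHA7 and ADA. A total of 11 genes were at least 1.5-fold higher in all 3. The ratios are a description, because the cells were chosen by their expression. SHH, the hedgehog ligand of the gut and foregut endoderm, stood at 118, 101 and 88.6 CPM in KO, HET and WT members, against 31.6, 58.7 and 46.6 CPM in the others. SHH was higher still in barcodes that met the marker rule but had 3 or more excluded genes, at 165, 141 and 107 CPM. It was thus not particular to members. TNFSF10, which encodes the death ligand TRAIL, was at 139.6, 114 and 186 CPM in members against 45.7, 47.4 and 111 CPM. NR2F1, a nuclear receptor of embryonic patterning, was at 98.5, 85.8 and 61.1 CPM against 33.5, 53.7 and 37.7 CPM. TNFSF10 and NR2F1 were lower in the barcodes with both markers and excluded genes than in members of the same library. TNFSF10 stood there at 133.9, 78.8 and 141 CPM, close to members in KO, and NR2F1 at 76.5, 58.7 and 42.6 CPM. NTS, the gut peptide neurotensin, was at 628, 1173 and 1713 CPM in members against 172, 681 and 1165 CPM. In the barcodes with both markers and excluded genes NTS was at 545, 1034 and 1805 CPM. RARRES2, the chemokine-like protein chemerin, was 2.66-, 1.51- and 1.69-fold higher in KO, HET and WT. PCDH9, a protocadherin, was 2.85-, 1.77- and 1.95-fold higher. ONECUT1, a transcription factor of the pancreatic and liver buds, was 1.97-, 1.45- and 1.45-fold higher, and COL2A1, a fibrillar collagen, 1.56-, 1.67- and 1.41-fold higher. Of the 20 genes with the highest ratios, all but COL2A1 had their largest ratio in KO.

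Genes lower in members included apolipoprotein and carrier genes. In plain CPM, RBP4, the retinol carrier, was at 44.7, 39.8 and 46.0 CPM in KO, HET and WT members, against 239.6, 105 and 189.9 CPM in the others, or 5.36-, 2.64- and 4.13-fold lower. APOA2, an apolipoprotein, was at 257, 214 and 133 CPM against 925, 453 and 468 CPM. NPPB, a natriuretic peptide induced by stretch, was at 36.1, 62.4 and 62.0 CPM against 153, 127 and 221 CPM. In barcodes that met the marker rule but had 3 or more excluded genes NPPB was at 48.8, 28.5 and 35.1 CPM. Of 2878 genes at 50 CPM or more in the other barcodes of every library, 3 (0.104%) were at least 2-fold lower in members of all 3. The remaining genes of the 10 lowest were FABP1, S100A14, AREG, GDF15, IL32, AKR1C2 and ETFB. AKR1C2 has near-identical relatives among which reads can be divided, so its value is uncertain.

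**Figure D3:**
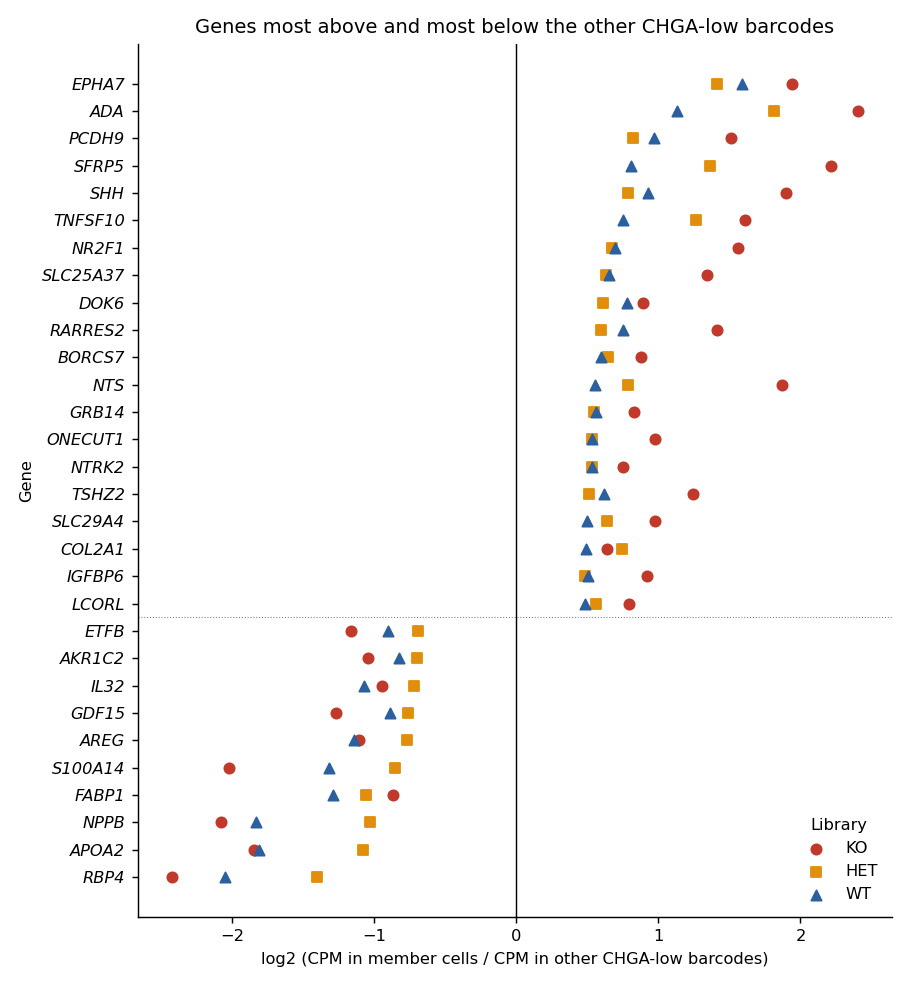
The 20 genes most above and the 10 genes most below the other CHGA-low barcodes (ranked by the weakest library, among genes at 50 CPM or more in the members, or for the lower genes in the other barcodes, of every library), as log2 of the level in member cells over the level in the other barcodes of the same library. Each point is 1 library; within that limit, which leaves out CDX1 and FGF7, EPHA7 and ADA lead in the positive direction and RBP4 in the negative, and KO points lie farthest from 0 for most genes.

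The gene lists gave the same picture in counts. Over all 11327 genes with at least 5 CPM in members of a library, 28.6% were above the other barcodes in all 3 libraries and 25.2% were below, and the median ratio was 1.00, 1.01 and 1.01 in KO, HET and WT. Of 25 intestinal transcription factors 13 were above and 1 below, and the 13 include CDX1, on which the cells were chosen. KLF5, a factor of intestinal crypts, was at 430.1, 424 and 443 CPM in members against 249, 331 and 344 CPM in the others, and SOX9 was 2.18-, 1.26- and 1.06-fold higher. KLF5 was higher still in barcodes that met the marker rule but had 3 or more excluded genes. It stood there at 519, 518 and 513 plain CPM, against 437, 439 and 420 plain CPM in members. Of 18 pancreatic progenitor and duct genes 10 were above, among them NKX6-1, a factor of beta cell progenitors, at 18.5, 17.7 and 33.7 CPM against 5.75, 10.45 and 20.3 CPM. KRT7, a duct keratin, was below, at 7.32, 7.15 and 2.60 CPM against 39.7, 23.9 and 14.1 CPM. Of 23 FGF pathway genes 10 were above, among them the marker FGF7 and also FGF10 at 7.99, 7.44 and 8.41 CPM against 2.86, 3.34 and 5.71 CPM. Of the 6 hedgehog genes, the ligands SHH and IHH and the factor GLI3 were above, and the receptor gene PTCH1 was below.

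Stress and contractility lists lay on the other side. Of 16 stretch and YAP-linked genes 15 were below the other barcodes in all 3 libraries, and YAP1 alone was above. TAGLN, an actin-binding protein, was at 162, 231 and 214 CPM in KO, HET and WT members against 373, 361 and 489.7 CPM. ANKRD1, a classical YAP target, was at 177, 312 and 443 CPM against 344, 470.0 and 672 CPM. Low ANKRD1 was not particular to members. In barcodes that met the marker rule but had 3 or more excluded genes it was at 60.3, 143 and 245 plain CPM, against 180, 323 and 420 plain CPM in members. TAGLN stood there at 133, 212 and 229 plain CPM, against 165, 240 and 204 plain CPM in members. Of 20 PERK-ATF4 genes of the integrated stress response 16 were below, with TRIB3 0.437, 0.656 and 0.468 times the level of the others. Of 19 glycolysis and hypoxia genes 16 were below, SLC2A3, a glucose transporter, at 0.442, 0.519 and 0.472 times the others. SLC2A3 has a near-identical relative, SLC2A14.

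The number of markers in a cell went with the levels of other genes. In KO barcodes with 0, 1, 2, 3, 4 and 5 markers, SHH stood at 9.80, 20.4, 46.3, 106, 127 and 164 plain CPM. In HET barcodes it stood at 25.7, 41.6, 65.6, 89.1, 119 and 144 CPM. In WT barcodes it stood at 14.0, 21.2, 41.5, 74.2, 112 and 147 CPM. RBP4 ran the other way, at 351, 234, 122, 48.6, 46.5 and 8.82 CPM in KO, at 169, 103, 47.3, 51.0, 19.996 and 17.4 CPM in HET, and at 453, 228, 96.5, 55.4, 29.01 and 16.0 CPM in WT. CDX2 moved little, with 166, 166, 146, 144, 133 and 120.1 CPM in KO and 234, 235, 237, 241, 249 and 223 CPM in WT, and it reached 113, 134, 142, 145, 152 and 157 CPM in HET. The cells just inside the rule (3 markers) numbered 801, 960 and 869 in KO, HET and WT, and those just outside (2 markers, same limit on the excluded genes) numbered 1296, 1557 and 1328. Their median depths were 14705, 13811 and 14485 UMIs inside, against 15280.5, 14172 and 14746.5 UMIs outside. SHH was higher with each further marker in all 3 libraries, and RBP4 was lower with each in KO and WT.

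KO members were then compared with WT members, which addresses what the loss of PAX6 went with in cells that barely express it. A gene was called when it had at least 50 CPM in either library and differed at least 2-fold. Of 3506 genes with enough counts, 10 (0.285%) were higher in KO and 41 (1.17%) were lower. In plain CPM, without the TMM factors, 16 were higher and 27 lower. The median log2 ratio of these genes was -0.09. The called genes were in the same direction in the other CHGA-low barcodes, for 10 of 10 higher and 41 of 41 lower genes, and 7 and 27 of them were also past 2-fold there, where 0.57% of 3509 genes were higher and 1.97% lower. The genes called in members thus went the same way in the other non-endocrine cells of the libraries. In reverse, 7 of the 20 higher and 27 of the 69 lower genes called in those barcodes were also called in members.

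The genes higher in KO members were of mixed function. FOSB, an immediate early transcription factor, was at 85.4 CPM in KO and 102 CPM in HET members, against 27.5 CPM in WT members. It was 3.11-fold higher in KO (2.82 to 3.43). SLC2A3 was at 55.4 CPM in KO and 87.0 CPM in HET, against 19.2 CPM in WT, but with members chosen by 4 markers or after thinning the KO level no longer reached 50 CPM, at log2 ratios of 1.95 and 1.74. HNRNPM, a splicing regulator, was at 276 and 237 CPM in KO and HET, against 111 CPM in WT. APOB, the structural apolipoprotein of chylomicrons and very low density lipoprotein, was at 427 and 443 CPM in KO and HET, against 204 CPM in WT, and its log2 ratio in KO was 0.78 when members were chosen after thinning. MT-ND6, WARS, UTP20, PLPP3 and SAMHD1 were also higher in KO, by 1.04 to 1.32 on the log2 scale. The PLPP3 ratio was 0.997 with 4 markers and 0.60 with members chosen after thinning, and the SAMHD1 ratio was 0.986 without cycling cells, which ended both calls.

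Islet hormones led the genes lower in KO members. GCG, which encodes glucagon, was at 3.37 CPM in KO and 66.6 CPM in HET members, against 243 CPM in WT members, and was 72.0-fold lower in KO than in WT (57.4 to 91.6). SST was at 2.26 and 9.53 CPM in KO and HET, against 143 CPM in WT, and INS at 16.6 and 39.3 CPM, against 79.1 CPM in WT. A single WT member carried 1950 of the 2800 SST UMIs of WT members. Without the top 8% of doublet scores the SST log2 ratio was -3.999 in KO and -2.006 in HET and SST no longer reached 50 CPM in WT. GCG UMIs were spread more widely, over 75 KO, 907 HET and 1217 WT members. GCG was 0.897, 0.976 and 0.852 times the level of the others in KO, HET and WT, and INS 1.01, 0.937 and 0.799 times. In CHGA-high barcodes GCG stood at 715, 15147 and 26906 plain CPM in KO, HET and WT. The GCG to INS count ratio was 0.203, 1.69 and 3.07 in members of KO, HET and WT, against 0.230, 1.63 and 2.88 in the other CHGA-low barcodes. The order of GCG across libraries was the same in members and in CHGA-high barcodes, and the part of free RNA in the member levels was not tested.

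Other genes lower in KO members were not hormones of islet cells. NTS was at 618 CPM in KO and 1132 CPM in HET members, against 1804 CPM in WT members, or 2.92-fold lower in KO (2.86 to 2.98). PLCG2, a phospholipase of receptor signalling, was at 132 and 119 CPM in KO and HET, against 544 CPM in WT. FGF19, a gut hormone that restrains bile acid synthesis, was at 23.9 and 24.7 CPM in KO and HET, against 61.7 CPM in WT. When members were chosen after thinning, its log2 ratios were -0.80 in KO and -0.85 in HET. FBXO2, IL18, AKR1C2 and PPP1R1A had log2 ratios of -1.64, -1.47, -1.42 and -1.39 in KO, and IL18 was still past 2-fold with 4 markers and after thinning (-1.30 and -1.13) but no longer reached 50 CPM. CDX2 stayed short of 2-fold: WT exceeded KO by 1.87-fold (1.79 to 1.96) and HET by 1.79-fold (1.72 to 1.87).

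HET members differed from WT members in a similar number of genes. Of 3488 genes 12 (0.344%) were higher in HET and 25 (0.717%) lower, with a median log2 ratio of -0.08. The balance of directions depends on scaling, since in plain CPM 23 were higher and 10 lower. In the other CHGA-low barcodes 0.513% of 3511 genes were higher and 1.31% lower. SLC2A3 and FOSB were again the highest, at 4.53-fold (4.06 to 5.07) and 3.72-fold (3.39 to 4.09). HABP2, a plasma serine protease, was at 148 CPM in HET against 55.1 CPM in WT. VCAN, a matrix proteoglycan, was at 66.3 CPM in HET against 26.6 CPM in WT. SSTR2, a somatostatin receptor, was at 314 CPM in HET and 153 CPM in KO, against 131 CPM in WT. DKK1, a secreted WNT inhibitor, was at 82.2 CPM in HET and 32.2 CPM in KO, against 35.6 CPM in WT. MT-ND6, APOB, HNRNPM and FSIP2 completed the 10 highest named genes. On the lower side SST, PLCG2, GCG, TCN1 and PPP1R1A had log2 ratios of -3.90, -2.19, -1.87, -1.79 and -1.47. The INS call in HET, at 2.01-fold, was just under 2-fold in plain CPM, with 4 markers, without high doublet scores and without cycling cells, at log2 ratios of -0.88, -0.83, -0.99 and -0.98. TMEM185A and CLDN3, a tight junction claudin, were lower in both edited libraries, CLDN3 at 75.5 and 67.8 CPM in KO and HET against 157 CPM in WT. The comparisons of KO and HET with WT use the same WT cells.

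KO and HET members differed in the fewest genes. Of 3313 genes 0 were at least 2-fold higher in KO and 13 (0.392%) were lower. The 13 were lower in the other CHGA-low barcodes too, and all were past 2-fold there, where 0.597% of 3348 genes were higher and 1.05% lower. GCG was the largest, 19.7-fold lower in KO than in HET (15.7 to 25.2). SPP1, the matrix protein osteopontin, was at 808 CPM in KO against 1819.8 CPM in HET. The neurofilament genes NEFM and NEFL were at 304 and 124 CPM in KO against 662 and 293 CPM in HET. ONECUT3 was at 28.6 CPM in KO against 76.3 CPM in HET, and IGFBP7 at 167 CPM in KO against 356 CPM in HET.

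**Figure D4:**
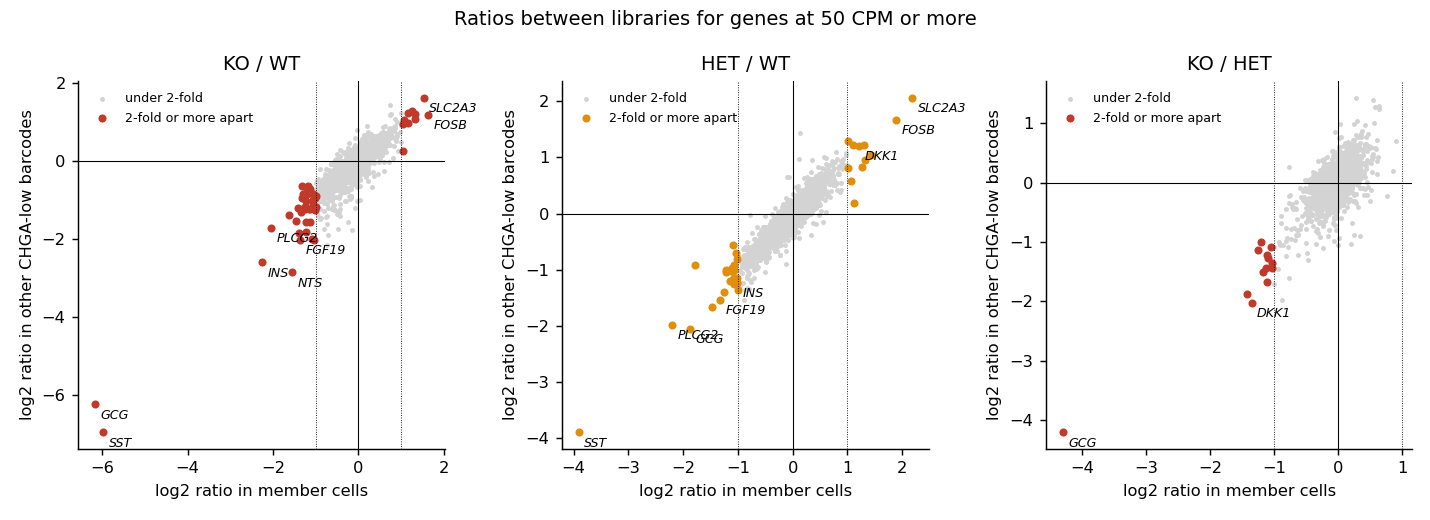
log2 ratio between libraries in member cells (horizontal axis) and in the other CHGA-low barcodes (vertical axis), for genes with at least 50 CPM in members of either library compared. Coloured points are at least 2-fold apart in members (51, 37 and 13 genes for KO over WT, HET over WT and KO over HET) and dotted lines mark 2-fold; every coloured point has the same sign on both axes.

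Gene lists between genotypes were read with members at 5 CPM or more. Over all such genes 0.964% of 11200 were at least 2-fold higher and 2.06% lower in KO than in WT, 1.1% and 1.39% of 11227 in HET than in WT, and 0.163% and 0.696% of 11061 in KO than in HET. The median log2 ratio was -0.03 for both edited libraries against WT and 0.01 between them. Replication genes stood out. Of 18 S phase genes measured in KO and WT, 18 were above WT in KO and 5 of them at least 2-fold, with a median log2 ratio of 0.78. In HET 16 of 16 were above WT, 2 of them at least 2-fold, with a median of 0.65. MCM2, a subunit of the replicative helicase, was at 21.4 and 17.8 CPM in KO and HET, against 10.1 CPM in WT, and MCM5, of the same complex, at 12.4 and 9.99 CPM, against 5.76 CPM. CDC6, which loads that helicase, was at 10.6 and 9.74 CPM, against 4.79 CPM in WT. G2 and M phase genes did not follow, with 8 of 19 above WT in KO and a median of -0.04. A UMI of MKI67 or TOP2A was found in 12.7% of KO (10.96 to 14.6), 15.3% of HET (13.5 to 17.2) and 10.1% of WT members (8.45 to 11.9). In members without such a UMI the S phase medians were 0.81 in KO and 0.60 in HET. In the other CHGA-low barcodes the S phase medians were 0.70 and 0.93.

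The remaining lists moved less or rested on few genes. Of 8 WNT inhibitors, SFRP5 included, 7 were below WT in KO, with a median of -0.68. FRZB was at 17.6 CPM in KO and 36.9 CPM in HET against 35.5 CPM in WT, and SFRP1 at 32.2 and 66.2 CPM against 59.1 CPM. In HET 5 of the 8 were above WT and the median was 0.06. Of 23 FGF pathway genes 17 were below WT in KO and 3 at least 2-fold, namely FGF19, ETV1 and ETV4, which are a ligand and 2 FGF-responsive transcription factors. Stomach genes were at low levels throughout, and 4 of 6 were at least 2-fold lower in KO: SOX2 at 3.15 and 2.92 CPM in KO and HET against 6.57 CPM in WT, and CLDN18, ANXA10 and VSIG1. TFF1 went the other way and was at least 2-fold higher in KO than in WT and than in HET. Of 17 genes of intestinal epithelial function 1 was higher (APOB) and 1 lower (SLC15A1, a peptide transporter) in KO, with a median of -0.12. Of 24 intestinal transcription factors only KLF4 passed 2-fold in KO, at 19.5 and 20.9 CPM in KO and HET against 6.11 CPM in WT. Of 13 mitochondrially encoded genes 13 were above WT in KO and 12 in HET, with medians of 0.49 and 0.49. The same libraries had the higher median mitochondrial share in members given above, and the part of RNA quality in these values was not tested. Of 30 IRE1-XBP1 genes, the branch of the unfolded protein response named in the series title, 21 were below WT in KO, but 2 reached 2-fold (EDEM2 and KDELR3) and the median was -0.16. In HET 25 of the 30 were below WT and 0 reached 2-fold, with a median of -0.14. Between the edited libraries 22 of the 30 were higher in KO than in HET, with a median of 0.05. XBP1 itself was at 194 and 187 CPM in KO and HET, against 215 CPM in WT.

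**Figure D5:**
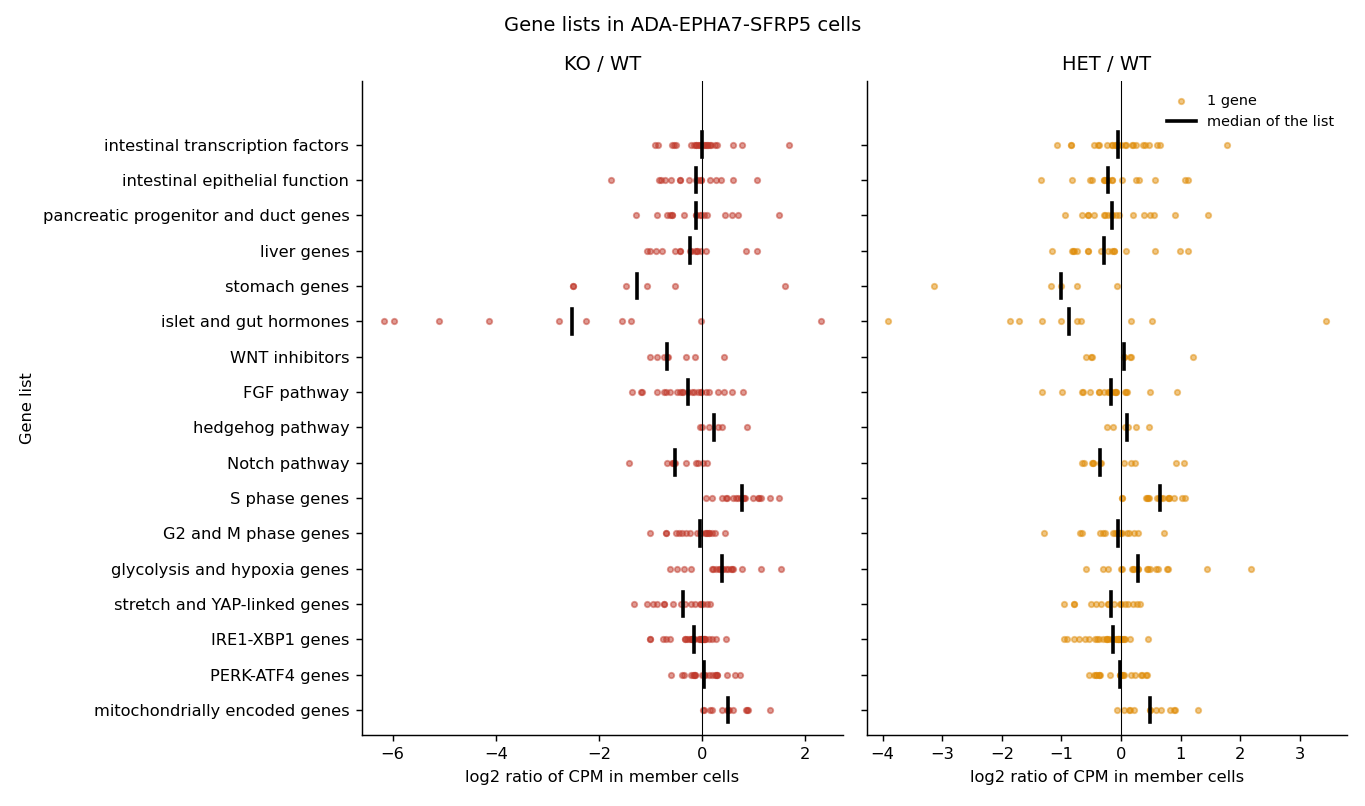
log2 ratio of CPM in ADA-EPHA7-SFRP5 cells for the genes of 17 lists, KO over WT (left) and HET over WT (right). Each dot is 1 gene with at least 5 CPM in either library and the black bar is the list's median; the S phase medians are 0.78 and 0.65, and the islet and gut hormone medians are -2.52 and -0.88.

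Within a library the members were not uniform. At 5000 UMIs per cell, variance over mean had a median of 1.05 over 8128 genes in each library, where 1 is the value for pure counting noise. NTS reached 23.8, 34.0 and 36.6 in KO, HET and WT, with a UMI in 38.8%, 55.9% and 60.7% of thinned members. AGR2, a secretory disulfide isomerase and 1 of the excluded genes, reached 13.3, 13.5 and 13.5 with a UMI in 29.2%, 36.8% and 28.3% of cells. The next were CKB, VIM, APOA1, FABP1, SPP1, ANKRD1, APOE, NEFM, APOC1, FGB, GSTA1, CCL20 and AREG. CCL20 had a UMI in only 3.56%, 3.93% and 2.24% of KO, HET and WT members.

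Some of the variable genes varied together from cell to cell. APOE and APOC1, neighbouring apolipoprotein genes, had Spearman coefficients of 0.61, 0.65 and 0.58 over 1321 KO, 1452 HET and 1249 WT members. CKB, the brain-type creatine kinase, went with APOC1 (0.51, 0.50 and 0.36) and VIM (0.44, 0.45 and 0.32). APOA1 went with AFP (0.32, 0.42 and 0.41). NTS ran against APOC1, with -0.35, -0.31 and -0.41. The cells of a library share its capture and its free RNA, so these coefficients are descriptions.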

How the data were processed

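The authors deposited raw UMI counts per gene and barcode; per the file headers these came from Cell Ranger 6.1.2. GRCh38 is the build in the submitters' processing notes, which also list Seurat. Aligner settings are not given in these sources. Coordinates are those of GENCODE 29. Barcodes were selected by the stated rule, and counts were summed per library and set. Levels between libraries are CPM scaled with TMM factors (edgeR 4.0.16, R 4.3.3), and plain CPM was used within a library. Genes at 0 were set against a floor of 3 counts per library. Intervals are exact at 95%. No p-value was computed, since each genotype had 1 library. Scrublet (scanpy 1.11.5) called 0 doublets in each library and so did not work; removing the top 8% of scores was an alternative. Named genes were the markers, the excluded genes, PAX6, CDX2, CHGA and EPCAM, the 20 genes most above the other barcodes, the 10 largest per direction and pair, the 15 most variable, and examples from lists at 5 CPM or more; genes most below the other barcodes were added after seeing the values. Members, lists and rules were chosen with earlier results of these data known. The calling code was tested on simulated counts. One gene that the naming rule selected is not reported here.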

Additional observations from a re-analysis of the deposited data

How the results depend on the processing

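The share of members depends on the rule. It was 4.97%, 5.77% and 5.25% in KO, HET and WT after thinning, 6.002%, 5.93% and 4.51% with 4 markers, 30.2%, 36.3% and 30.4% with 2 markers and 18.2%, 23.9% and 23.1% without the limit on the excluded genes; under stricter limits (3000 UMIs, 10% mitochondrial) it was 16.3% in KO and 15.5% in WT. Counts of higher and lower genes were 16 and 27 (KO against WT) and 23 and 10 (HET against WT) in plain CPM. At 10 CPM they were 56 and 145, 61 and 99, and 10 and 43 (KO against HET). With no minimum they were 1402 and 1180, 1421 and 1035, and 787 and 898, which counts genes of few UMIs. In HET against WT, 21 genes were higher with 4 markers and 27 with members chosen after thinning. In KO against HET, 1 gene was higher after thinning and 1 without MKI67 or TOP2A UMIs. Lost calls on named genes were counted among 67 ratios past 2-fold, or 66 in plain CPM and with the stricter limits. These totals exceed the number of calls, because they include genes under the CPM minimum, such as AOC1 and MMP1. With 4 markers 10 calls were lost, 11 after thinning, 3 without cycling cells and 3 without high doublet scores. In plain CPM 6 calls were lost and with the stricter limits 0. The KO share, above WT under the stated rule, was below WT after thinning and without the limit on the excluded genes, and the HET against WT counts turned from mostly lower to mostly higher in plain CPM. No call on a named gene changed direction. No paired analysis was possible because each genotype has 1 library, and for the same reason no library could be left out.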

Other observations

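The excluded genes overlapped with the markers. Among CHGA-low barcodes with at least 3 of MMP1, AOC1, GPX2, TDO2 and AGR2, 42.5% of KO (38.6 to 46.6), 46.9% of HET (43.9 to 49.8) and 47.2% of WT (44.6 to 49.8) also had at least 3 of the 5 markers. Among barcodes with fewer of the excluded genes the shares were 19.4%, 22.6% and 24.5%. After thinning to 5000 UMIs the shares were 10.4%, 13.3% and 17.0% with the excluded genes and 5.93%, 6.73% and 7.49% without. The limit on the excluded genes removed 257 KO, 531 HET and 706 WT barcodes. RBP4 in those barcodes was at 44.7, 52.1 and 41.3 plain CPM, near its level in members, against 233, 175 and 149 CPM in barcodes with the excluded genes alone.

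Interferon and HLA class I genes differed between the edited libraries. Of 22 genes 19 were higher in KO than in HET members, with a median log2 ratio of 0.39, and 1 reached 2-fold (IFI6, at 21.3 CPM in KO, 7.68 CPM in HET and 11.4 CPM in WT). Of 19 BMP and TGF-beta genes 16 were lower in KO than in HET, with a median of -0.29, and of 21 collagen and basement membrane genes 19 were lower, with a median of -0.29. GHRL, the ghrelin gene, stood at 43.5 CPM in HET members and 19.8 CPM in KO members, against 4.03 CPM in WT members. In the other CHGA-low barcodes it was at 14.0, 24.0 and 9.84 CPM in HET, KO and WT.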
